A study of Mus musculus with 15 samples.

Results

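Myc, Ptcra, Notch3, Ccnd1 and Id1 were followed in regulatory T cells (Treg) from the spleen of mice whose Notch pathway had been switched on, interrupted or both. Members were the array features annotated to exactly 1 of these gene symbols, taken because the genes are known as Notch targets in thymocytes or T cell leukaemia. Each of the 5 genes had 1 such feature, out of 24922 features and 19752 genes tested. All groups were 6-week-old males that carry Foxp3EGFPCre, in which the Treg factor Foxp3 directs Cre and the green fluorescent protein used for sorting. The control group (titled Foxp3EGFPCre, n = 4 arrays) had no other allele per the labels. The N1c group (Foxp3EGFPCreR26N1c/N1c, n = 4) also carried R26N1c, an allele from which Cre releases expression of the Notch1 intracellular domain. The RBPJdel group (Foxp3EGFPCreRBPJ∆/∆, n = 4) had the floxed RBPJ gene removed by the same Cre. The N1c_RBPJdel group (Foxp3EGFPCreR26N1c/N1cRBPJ∆/∆, n = 3) had both changes. Each array held cells of several pooled mice, so the spread between arrays is a spread between pools. The sorter was a FACSAria for N1c_RBPJdel and a MoFlo for the other 3 groups, and this machine and that genotype cannot be told apart.

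Notch receptors are cut after they bind a ligand, and the freed intracellular domain enters the nucleus, where it joins the DNA-binding protein RBPJ and turns on target genes. In early thymocytes this pathway drives commitment to the T cell lineage and passage through the pre-T cell receptor checkpoint, and activating Notch1 mutations are common in T cell leukaemia. Myc, a transcription factor of cell growth, is the target most closely tied to leukaemia growth. Ptcra encodes the alpha chain of the pre-T cell receptor, Notch3 encodes a second Notch receptor, Ccnd1 encodes cyclin D1 of the G1 phase, and Id1 encodes an inhibitor of E proteins, a class of helix-loop-helix transcription factors.

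RefSeq windows of 250 bases before the start site (GRCm38.p6) were at hand for Ptcra and Notch3, 2 of the 5 genes, and for 4 of 7 feedback and Hes/Hey targets, the genes through which Notch signalling is usually read. They were searched on both strands for TGGGAA, the core letters of the RBPJ site, for GTGGGAA, its high-affinity form that contains the core, and for CACGTG, the E-box that Myc binds. The 2 windows of the members are printed with that of Hey2, a Notch-induced repressor that rose in N1c Treg, so that the letters can be compared. All 3 genes lie on the minus strand and are printed 5′ to 3′ towards the start site, with the core or its complement in capitals.
Ptcra, chr17:46763713-46763962: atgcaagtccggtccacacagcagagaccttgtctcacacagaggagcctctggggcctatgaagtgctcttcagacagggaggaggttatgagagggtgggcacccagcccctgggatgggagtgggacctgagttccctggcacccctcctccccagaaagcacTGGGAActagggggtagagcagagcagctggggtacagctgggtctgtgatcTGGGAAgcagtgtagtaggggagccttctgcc
Notch3, chr17:32166891-32167140: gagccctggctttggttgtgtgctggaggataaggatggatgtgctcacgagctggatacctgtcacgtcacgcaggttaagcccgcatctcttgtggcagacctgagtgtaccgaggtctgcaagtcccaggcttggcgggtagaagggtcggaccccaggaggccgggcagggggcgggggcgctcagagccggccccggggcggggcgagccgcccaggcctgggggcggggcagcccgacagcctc
Hey2, chr10:30842784-30843033: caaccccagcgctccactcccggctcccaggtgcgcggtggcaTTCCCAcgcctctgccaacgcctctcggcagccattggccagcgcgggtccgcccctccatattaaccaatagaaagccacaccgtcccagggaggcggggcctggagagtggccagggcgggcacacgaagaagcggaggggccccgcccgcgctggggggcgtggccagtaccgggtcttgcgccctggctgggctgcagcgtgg

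Ptcra held the core TGGGAA at 2 places, 84 and 32 bases before the start site and both on the gene's own strand. It held neither GTGGGAA nor CACGTG. The Notch3 window held none of these letter strings. Hey2 held 1 GTGGGAA, on the opposite strand 207 bases before its start site. Hes5 held 2 GTGGGAA and was the 1 feedback target that was not called in N1c against control (log2 difference -0.06 ± 0.10). The windows of Dtx1 and Nrarp held neither form, and both genes rose by 1.47 in that comparison. Of 32851 windows of the same length, 21.6% held TGGGAA, 5.42% held GTGGGAA and 6.02% held CACGTG. A match is a match of letters only and was not tested for binding.

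The arrays were Affymetrix Mouse Gene 1.0 ST, which read a transcript with probes along its exons, and the deposited values were intensities on a linear scale. A linear model with 1 mean per genotype (limma) gave log2 differences, standard errors (SE) and 2-sided p-values, adjusted by Benjamini-Hochberg over the 19752 genes in each of 7 comparisons, with 0.05 as the threshold. The p-values measure the spread between these arrays of pooled mice. As a check of the groups, the geometric mean of Rbpj was 497 for control, 521 for N1c, 267 for RBPJdel and 209 for N1c_RBPJdel Treg, and it fell in RBPJdel against control (log2 change -0.90, adjusted p = 0.00213). With the mean over all features of the gene in place of the brightest one, that fall of Rbpj was -0.41 (adjusted p = 0.32). Foxp3 lay between 4220 and 5333 in the 4 groups and passed no test. The summed intensity of 8 Treg markers lay between 24080 and 30579 on all arrays. The Notch1 feature lay at 1227, 1252, 1326 and 1008 in the same order of groups and passed no test, and it is no direct check of the allele, since the table does not say which part of Notch1 its probes cover.

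The arrays carry no detection call. Myc was a bright feature on them, with values from 942 to 1815. The features of the other 4 genes were dim, from 74.5 to 106 for Ccnd1, from 74.6 to 92.4 for Id1, from 87.6 to 117 for Ptcra and from 109 to 153 for Notch3. Of all genes, 53.5% were dimmer than Notch3, which therefore stays in where dim genes are left out. The mean intensities of 19 genes of organs outside the immune system ranged from 22.6 to 193 with a median of 62.1 on these arrays. A value near 100 therefore does not by itself show that a transcript was present in Treg, and intensities of different features are no measure of relative transcript amount. The spread of log2 values within groups was 0.20 for Myc, 0.12 for Ptcra, 0.15 for Notch3, 0.12 for Ccnd1 and 0.09 for Id1.

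**Figure D1:**
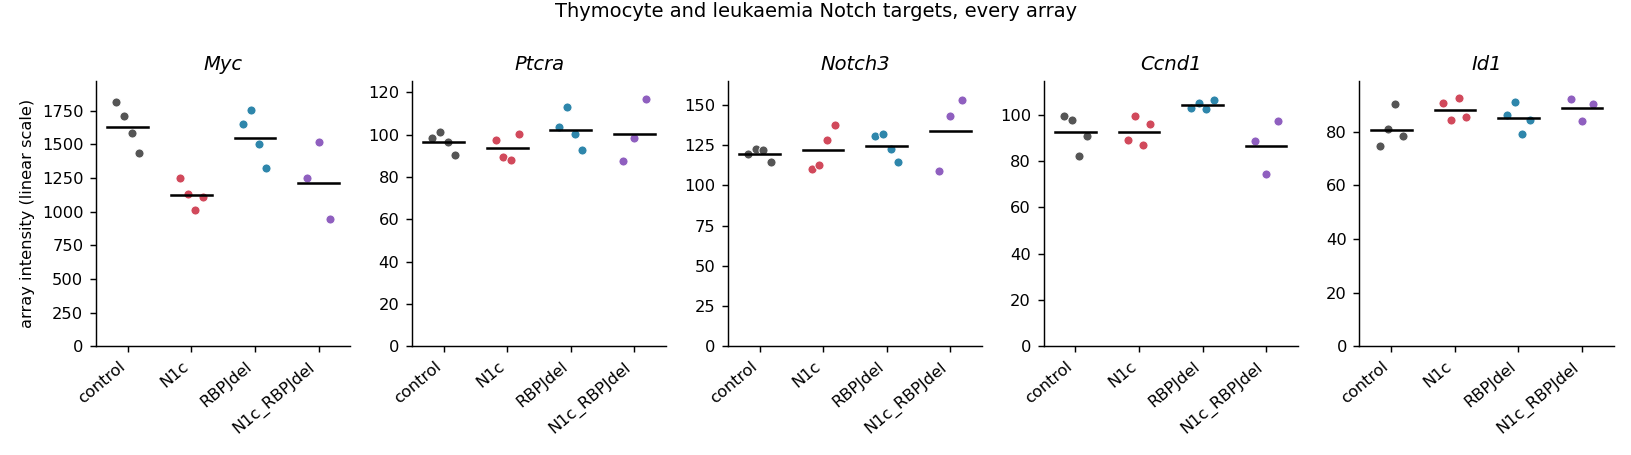
Intensity on the linear scale of each array (points, vertical axis from 0) for Myc, Ptcra, Notch3, Ccnd1 and Id1 in the 4 genotype groups (horizontal axis), with the geometric mean of each group as a bar. The 4 N1c arrays of Myc, from 1010 to 1248, lie below the 4 control arrays, from 1433 to 1815, while for Ptcra, Notch3 and Id1 the arrays of all groups overlap.

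Myc was the 1 member that passed the test in N1c Treg, and it was lower, not higher, than in control Treg. The control arrays read 1815, 1714, 1585 and 1433. The N1c arrays read 1248, 1131, 1010 and 1109. Every N1c array lay below every control array, as was the case for 2.83% of all genes. The geometric means were 1630.5 (SD 0.15 on the log2 scale, n = 4) and 1121 (SD 0.13, n = 4), and the log2 difference of -0.54 ± 0.13 (SE), or 0.688 times the control level (95% interval 0.566 to 0.836), had an adjusted p of 0.0496. In this comparison 326 of the 19752 genes were called, 1.65% in either direction and 0.714% as lower. Same-numbered arrays of these groups deviated together, which the main test leaves out. With the replicate number as a block 494 genes were called, and the call on Myc was kept.

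The call on Myc stood close to the threshold. The difference was negative in each of 25 alternatives, between -0.60 and -0.49, and the call was kept in 13 of them. Leaving out any 1 of the 4 N1c arrays, control array 2, 3 or 4, RBPJdel array 1, 2 or 3, or N1c_RBPJdel array 1 gave an adjusted p between 0.0582 and 0.174. Without the N1c_RBPJdel arrays altogether the adjusted p was 0.0128.

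With RBPJ deleted and no R26N1c, Myc was not called. The RBPJdel arrays read 1650, 1752, 1502 and 1328, a range that overlaps the control arrays. Their geometric mean of 1549.5 (SD 0.17, n = 4) differed from control by -0.07 ± 0.13 on the log2 scale (adjusted p = 0.953), with a 95% interval from -0.35 to 0.21, and 0.111% of all genes were called. The N1c arrays all lay below the RBPJdel arrays, as did 4.37% of all genes, and the difference of -0.47 ± 0.13 missed the threshold (adjusted p = 0.0872), where 2.5% of all genes were called. It passed in 8 of 25 alternatives, among them the fits without N1c_RBPJdel array 2 (adjusted p = 0.038) and without N1c_RBPJdel array 3 (adjusted p = 0.0321).

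In Treg with both changes, Myc spread more widely than in any other group. The 3 N1c_RBPJdel arrays read 1252, 1518 and 942. The lowest lay below all N1c arrays and the highest within the control range. The geometric mean was 1214 (SD 0.35, n = 3), which set the order of the groups as control, RBPJdel, N1c_RBPJdel and N1c from high to low, and no 2 neighbours in this order differed beyond the threshold. Against RBPJdel, the comparison that asks what R26N1c does without RBPJ, the log2 difference was -0.35 ± 0.14 (adjusted p = 0.171). The adjusted p was 0.0347 without N1c_RBPJdel array 2 and 0.51 without array 3, with differences of -0.51 and -0.17.

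Against control, Myc in N1c_RBPJdel Treg differed by -0.42 ± 0.14 (adjusted p = 0.0731). That p was 0.0146 without N1c_RBPJdel array 2 and 0.0496 without control array 5, and the difference was -0.24 without N1c_RBPJdel array 3. Against N1c, the comparison that asks whether the N1c level needs RBPJ, the log2 difference was 0.12 ± 0.14 (adjusted p = 0.657, 95% interval -0.19 to 0.42). The interaction (the R26N1c effect without RBPJ minus that with RBPJ) was 0.19 ± 0.20 (adjusted p = 0.735, 95% interval -0.23 to 0.60). Of all genes 2.29% were called against RBPJdel, 8.9% against control, 9.23% against N1c and 0.84% in the interaction.

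N1c_RBPJdel arrays also carried more signal of other cells, a measured difference that accompanies each result on this genotype. The summed intensity of 6 measured erythroid markers of 10 was 604 to 1437 in N1c_RBPJdel and 419 to 519 on the other arrays. That of 12 myeloid and neutrophil markers was 715 to 949 against 561 to 712. For 8 measured B cell markers of 9 it was 727 to 1028, against 718 to 844 in RBPJdel, 636 to 707 in control and 590 to 638 in N1c. In that sum the RBPJdel arrays thus overlapped the N1c_RBPJdel arrays and lay above all control and N1c arrays. No B cell marker was called in RBPJdel against control. Against N1c, 2 of 6 erythroid, 3 of 12 myeloid and 4 of 8 B cell markers rose in N1c_RBPJdel, beside 4.58% of all genes. The B cell receptor component Cd79a rose against N1c (1.05, adjusted p = 0.000209), between dim geometric means of 28.2 and 58.6. The erythroid carbonic anhydrase Car1 rose by 2.60 (adjusted p = 0.000352), from a geometric mean of 59.4 to one of 360. The 5 CD8 T cell markers summed to 923 to 964 there and 720 to 1004 elsewhere. In bulk RNA, fewer or more cells of a type and less or more RNA per cell cannot be told apart, and the part of these signals in the members' values was not tested.

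Partners of Myc, and genes of growth that it is known to drive, had no call beside it in N1c against control. None of 11 Myc partners and antagonists, which include its dimer partner Max and the repressors Mxd1 and Mnt, passed the test in N1c against control, with a median log2 difference of -0.06. None of 24 Myc-driven growth genes passed it either, and their median was 0.04 beside -0.01 for all genes. Since 1.65% of all genes were called there, lists of 11 and 24 genes without a call say little about genes that Myc drives. Neither list had a call in RBPJdel against control, where 0.111% of all genes were called. The transferrin receptor gene Tfrc rose in N1c against RBPJdel (0.87 ± 0.14, adjusted p = 0.000919), the 1 call of the growth genes there, while its difference in N1c against control was 0.42 ± 0.14 (adjusted p = 0.207). In N1c_RBPJdel against N1c, 5 of the 24 growth genes fell, where 4.65% of all genes fell. Their median was -0.20 beside 0.02 for all genes. Tfrc fell by 1.15 on the log2 scale (adjusted p = 0.000117), and the nucleolin gene Ncl fell by 0.49 (adjusted p = 0.0133), the latter not called without N1c_RBPJdel array 1 (-0.41, adjusted p = 0.0684). The Max-binding repressor Mga also fell there (log2 change -0.32, adjusted p = 0.037), a call lost without any 1 of the 3 N1c_RBPJdel arrays, N1c array 1, 2 or 4, RBPJdel array 1, or control array 2 or 3, with adjusted p between 0.0506 and 0.11.

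Pvt1, the noncoding neighbour of Myc on chromosome 15, is no member and had geometric means of 267, 242, 260.1 and 228 in control, N1c, RBPJdel and N1c_RBPJdel. Its log2 difference in N1c against control was -0.14 ± 0.15 (adjusted p = 1). The gene whose log2 values ran most like those of Myc over the 15 arrays, among genes brighter than the median gene, was Itih5 (Pearson r = 0.95). Gpr146 (r = 0.94) and Slc17a9 (r = 0.92) followed. Since they were chosen for running like Myc on these same arrays, their lower level in N1c than in control Treg comes with the choice and is no separate result. It was -0.95 for Itih5, -0.78 for Gpr146 and -0.73 for Slc17a9 on the log2 scale.

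**Figure D2:**
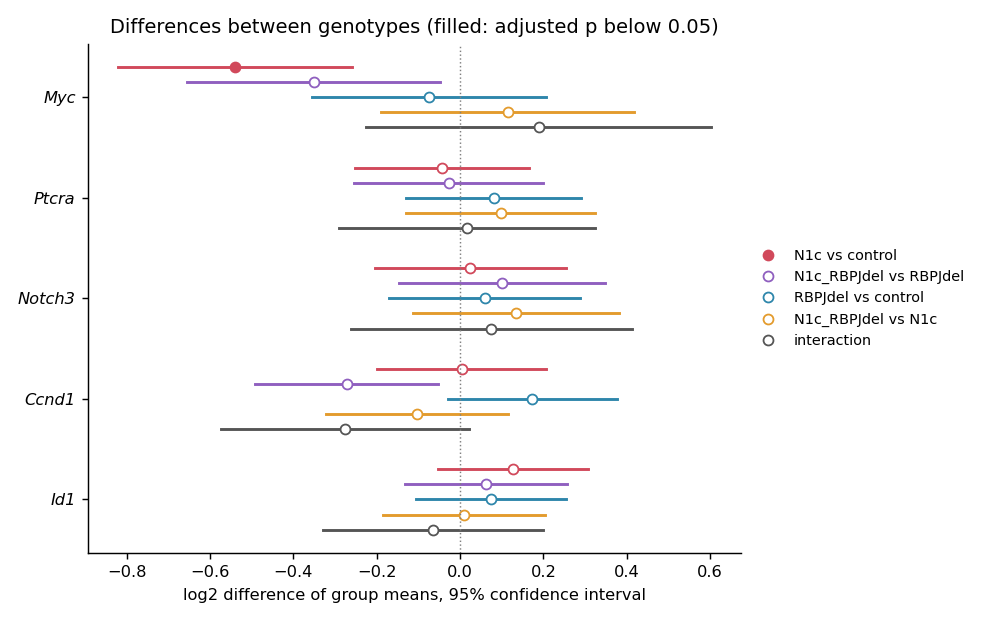
Log2 difference between genotype means (points, horizontal axis) with its 95% confidence interval (lines) for each member in 4 comparisons and the interaction, filled where the adjusted p is below 0.05. The filled point is Myc in N1c against control at -0.54, and the other 24 points are open.

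Ptcra, whose product pairs with the rearranged TCR beta chain before TCR alpha is made, passed no test in the 7 comparisons. The control arrays read 98.3, 101, 96.7 and 90.4, and the N1c arrays 97.4, 89.4, 87.9 and 100.5. The RBPJdel arrays read 104, 113, 100.1 and 92.6, and the N1c_RBPJdel arrays 87.6, 98.4 and 117. The 4 groups overlapped, and the last of them held both the lowest and the highest array. Geometric means were 96.6 for control, 93.7 for N1c, 102 for RBPJdel and 100.2 for N1c_RBPJdel Treg, and no neighbours in their order (RBPJdel, N1c_RBPJdel, control, N1c) differed beyond the threshold.

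In N1c against control the log2 difference of Ptcra was -0.04 ± 0.10 with a 95% interval from -0.25 to 0.17, which is 0.839 to 1.12 times the control level. RBPJdel differed from control by 0.08 ± 0.10 (95% interval -0.13 to 0.29). N1c_RBPJdel differed from N1c by 0.10 ± 0.11 and from RBPJdel by -0.03 ± 0.11. All adjusted p-values of Ptcra were 0.607 or higher.

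The other genes of the pre-T cell receptor stage gave no call in N1c against control. In N1c and RBPJdel against control, where 1.65% and 0.111% of all genes were called, none of 14 early thymocyte genes passed the test. Among them was Rag1, which cuts receptor genes for rearrangement, at 47.1 in control and 46.2 in N1c. Not every gene of the list was as flat. For Dntt, Lyl1 and Themis, a signalling protein of positive selection, every N1c array lay above every control array. That was the case for 2.9% of all genes. Geometric means in control and N1c were 38.7 and 52.7 for Dntt, 163 and 205 for Lyl1, and 744 and 967 for Themis. Of the 14 genes, 6 had a difference above 0 in N1c against control, and the median was -0.02. Themis was the 1 gene of the 14 called in N1c_RBPJdel against N1c, where it fell by 0.76 (adjusted p = 0.00163). Themis was also the 1 call in N1c against RBPJdel, where it rose (0.55 ± 0.12, adjusted p = 0.0165), and it was not called there without N1c array 1 or RBPJdel array 2 or 4, with adjusted p between 0.0544 and 0.0659. Of 9 measured genes of the pre-T cell receptor and TCR complex, none passed in N1c against control, with a median of 0.17. The 3 calls in N1c_RBPJdel against N1c, where 4.65% of all genes fell, were falls of Zap70, Lat and Fyn, signalling proteins below the receptor. The calls on Zap70 and Lat were each lost without N1c_RBPJdel array 1 or 3 or N1c array 1 or 2, with adjusted p between 0.0521 and 0.0944. Cd3e, a subunit of the TCR complex, lay between 5501 and 6000 in the 4 groups.

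Notch3 passed no test in the 7 comparisons either. The control arrays read 119.8, 122.4, 121.9 and 114.6, and the N1c arrays 110.3, 112.9, 128.1 and 137.7. The RBPJdel arrays read 130.8, 131.8, 122.4 and 114.3, and the N1c_RBPJdel arrays 108.8, 142.9 and 153.3. The N1c arrays fell on both sides of the control arrays, and the N1c_RBPJdel group held the lowest and the 2 highest values. Control array 3 and RBPJdel array 3 held the same value, a tie of a kind found in 6.72% of all values.

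Geometric means of Notch3 ran in order from 119.6 in control over 121.7 in N1c and 124.6 in RBPJdel to 133.6 in N1c_RBPJdel, with no neighbours apart beyond the threshold. The log2 difference was 0.03 ± 0.11 in N1c against control (95% interval -0.20 to 0.25) and 0.06 ± 0.11 in RBPJdel against control. It was 0.13 ± 0.12 in N1c_RBPJdel against N1c and 0.16 ± 0.12 in N1c_RBPJdel against control (adjusted p = 0.409). The sign of the N1c difference was not settled, since 2 of 25 alternatives turned it, with the values of all of them between -0.04 and 0.08.

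None of the other 3 Notch receptor genes passed the test in N1c or RBPJdel against control. Geometric means of Notch2 were 942 for control, 631 for N1c, 890.2 for RBPJdel and 600.0 for N1c_RBPJdel Treg. It fell in N1c_RBPJdel against control (-0.65 ± 0.18, adjusted p = 0.0335), and its difference in N1c against control was -0.58 ± 0.17 (adjusted p = 0.12). Notch4 lay between 109 and 116 in the 4 groups. Ptcra and Notch3, both near the median gene in brightness and both on chromosome 17, varied together over the arrays (r = 0.71, and 0.74 after subtracting group means). Each also followed the mean of the 9876 genes in the dimmer part of the table (r = 0.41 and 0.46).

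Ccnd1 read highest in the RBPJdel group and passed no test. The control arrays read 99.6, 97.8, 82.3 and 90.7, and the N1c arrays 89.0, 99.3, 86.8 and 96.0. The RBPJdel arrays read 102.9, 105.2, 102.3 and 106.4, and the N1c_RBPJdel arrays 88.7, 74.5 and 97.2. Every RBPJdel array lay above every array of the other 3 groups. Of all genes, 2.81% had RBPJdel arrays all above the control arrays, 4.37% all above the N1c arrays and 8.45% all above the N1c_RBPJdel arrays.

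The RBPJdel geometric mean of Ccnd1 was 104 (SD 0.03, n = 4), above 92.6 in N1c, 92.3 in control and 86.3 in N1c_RBPJdel. The log2 difference from control was 0.17 ± 0.10, with an unadjusted p of 0.0876 and an adjusted p of 0.793 in limma's test. Against RBPJdel, N1c_RBPJdel was lower by -0.27 ± 0.10 (unadjusted p = 0.0176, adjusted p = 0.146) and N1c by -0.17 ± 0.10 (adjusted p = 0.577). N1c against control gave 0.00 ± 0.10 (95% interval -0.20 to 0.21), and its sign turned in 5 of 24 alternatives. The interaction was -0.28 ± 0.14 (adjusted p = 0.428).

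The other D cyclins, Ccnd2 and Ccnd3, passed no test in the 7 comparisons. Geometric means of Ccnd2 were 3636 for control, 3076 for N1c, 3989 for RBPJdel and 2788 for N1c_RBPJdel Treg. Ccnd3 lay at 941, 679, 919 and 686 in the same order of groups. Of 15 measured genes of G1 cyclins, their kinases and inhibitors, 1 rose in N1c against control, Cdkn2c, an inhibitor of the cyclin D kinases Cdk4 and Cdk6. It read 142 to 174 on the control arrays and 242 to 300.4 on the N1c arrays (0.72 ± 0.11, adjusted p = 0.00057). Of all genes, 0.937% rose there, and 2.9% had all N1c arrays above all control arrays, as Cdkn2c had. None was called in RBPJdel against control. Of the 15, 4 fell in N1c_RBPJdel against N1c, where 4.65% of all genes fell. Among the 4 were Cdkn2c (-0.62, adjusted p = 0.00286) and Cdk6 (-0.62, adjusted p = 0.016), the latter not called without N1c array 2 (-0.51, adjusted p = 0.056).

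Among genes of cell division, a list that includes genes of DNA replication, 19 were measured. Their median log2 difference was 0.60 in N1c against control and 0.44 in RBPJdel against control. All 19 lay above 0 in N1c and 18 in RBPJdel, beside 47.8% and 58.8% of all genes. A single one, the mitotic ubiquitin-conjugating enzyme gene Ube2c, passed the test in N1c (1.18, adjusted p = 0.0127), and not without N1c array 1 (1.10, adjusted p = 0.0511) or N1c array 5 (1.08, adjusted p = 0.0558). None passed it in RBPJdel. The division gene Ccna2 passed it in N1c in 3 of 25 alternatives, and Rrm2 in 2. Of all genes 0.937% rose in N1c against control. The median was -0.76 in N1c_RBPJdel against N1c, where 4 of 19 fell, beside 4.65% of all genes. Among the 4 was the ribonucleotide reductase gene Rrm2 (-1.34, adjusted p = 0.00803).

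Id1 had the narrowest range of the 5 members over the 15 arrays, with the highest value 1.24 times the lowest. The control arrays read 74.6, 80.9, 90.3 and 78.3, and the N1c arrays 90.8, 84.4, 92.4 and 85.5. The RBPJdel arrays read 86.1, 91.2, 79.3 and 84.4, and the N1c_RBPJdel arrays 92.1, 84.2 and 90.5. In Id1, 3 of the 4 control arrays lay below every N1c array, while the other lay within the N1c range. Geometric means ran from 80.8 in control over 85.2 in RBPJdel and 88.2 in N1c to 88.9 in N1c_RBPJdel, and no neighbours differed beyond the threshold.

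The log2 difference of Id1 in N1c against control was 0.13 ± 0.09 (adjusted p = 0.897), with a 95% interval from -0.05 to 0.31, or 0.964 to 1.24 times the control level. RBPJdel against control gave 0.08 ± 0.09, N1c_RBPJdel against N1c 0.01 ± 0.09 and N1c_RBPJdel against RBPJdel 0.06 ± 0.09. The interaction was -0.06 ± 0.13 (adjusted p = 0.873).

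Other genes around Id1 did change. Id2, a second inhibitor of E proteins, read 717, 714, 882 and 1012 on the control arrays and 1658, 1163, 1357 and 1543 on the N1c arrays. Every N1c array lay above every control array, as was the case for 2.9% of all genes. Id2 rose by 0.79 ± 0.13 (adjusted p = 0.0029), and it also rose in N1c_RBPJdel against control (0.73 ± 0.14, adjusted p = 0.00812). Against RBPJdel, the group without R26N1c that also lacks RBPJ, Id2 in N1c_RBPJdel differed by 0.46. That difference was not called, and 1 of 24 alternatives called it. RBPJdel differed from control by 0.26, also not called. In N1c_RBPJdel against N1c, Id2 differed by -0.06 ± 0.14 (adjusted p = 0.834), and the interaction was -0.32 ± 0.20 (adjusted p = 0.518). Id3 lay at 374 in both control and N1c.

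Tcf12, an E protein gene, rose in N1c against control by 0.67 ± 0.09 (adjusted p = 0.000253), from 1506 to 1595 on the control arrays to 2271 to 2672 on the N1c arrays. In N1c_RBPJdel it read 1345 to 1388, and it fell in N1c_RBPJdel against N1c (-0.87 ± 0.10, adjusted p = 2.11e-05). Skil, a repressor of SMAD signalling, fell in N1c against control (-0.63 ± 0.12, adjusted p = 0.00668), and with the replicate block in these 2 groups alone by -0.55 (adjusted p = 0.0515). Id2, Tcf12 and Skil were the 3 calls there among 10 measured genes of the Id family, E proteins and BMP or TGF-beta targets. The median of the 10 was -0.03, and 1.65% of all genes were called in N1c against control. No gene of that list passed in RBPJdel against control.

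The remaining known thymocyte and leukaemia targets moved in both directions. Of 8 measured genes, 1 rose and 2 fell in N1c against control, with a median of 0.03. Of all genes, 0.937% rose and 0.714% fell there. Igf1r, the receptor of insulin-like growth factor 1, read 886, 1153, 834 and 743 in control and 620, 554, 432 and 412 in N1c. It fell by 0.84 ± 0.16 (adjusted p = 0.00651). In N1c_RBPJdel it read 423, 605 and 402, and it fell against control (-0.93 ± 0.17, adjusted p = 0.00546). Against RBPJdel it fell by 0.80 ± 0.17 (adjusted p = 0.0263), and that call was lost without N1c_RBPJdel array 1 or 3 or RBPJdel array 1, 2 or 3, with adjusted p between 0.0628 and 0.108.

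Il7r, the interleukin 7 receptor alpha chain, read 2642, 3121, 2367 and 3073 in control and 1867, 1949, 1918 and 1885 in N1c. It fell by 0.55 ± 0.11 (adjusted p = 0.0105), and without control array 3 by 0.49 (adjusted p = 0.0539). In N1c_RBPJdel it read 3415, 3490.2 and 3773, all above the control arrays, as was the case for 9.11% of all genes. Its log2 difference from control there was 0.35 and was not called. Against N1c, Il7r rose in N1c_RBPJdel by 0.90 ± 0.12 (adjusted p = 0.00013). The partner of beta-catenin, Lef1, read 2393, 2291, 2137 and 2657 in control and 3253, 2928, 2938 and 3705 in N1c. Lef1 rose by 0.43 ± 0.10 (adjusted p = 0.0357). That call was lost without N1c array 1 or 5, RBPJdel array 3, or control array 2, 3 or 4, with differences from 0.36 to 0.44 and adjusted p from 0.0546 to 0.152. With the replicate block in control and N1c alone, neither Il7r (-0.48, adjusted p = 0.0654) nor Lef1 (0.41, adjusted p = 0.0785) was called. In N1c_RBPJdel, Lef1 read 1856, 2202 and 1866 and fell against N1c (-0.70 ± 0.11, adjusted p = 0.000872).

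Trib2, a pseudokinase known as an oncogene in leukaemia, had geometric means of 1243 for control, 1832 for N1c, 1158 for RBPJdel and 673 for N1c_RBPJdel Treg. Its difference in N1c against control was 0.56 ± 0.22 (adjusted p = 0.37), and 0.52 (adjusted p = 0.0262) with the replicate number as a block. It fell in N1c_RBPJdel against N1c (-1.44 ± 0.23, adjusted p = 0.00107). Of the 8 genes none was called in RBPJdel against control. The genes Il2ra, Gata3, Skp2 and Bcl11b passed no test in N1c against control, and the features of Tcf7 and Cdkn1a named several genes or none and were not used.

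**Figure D3:**
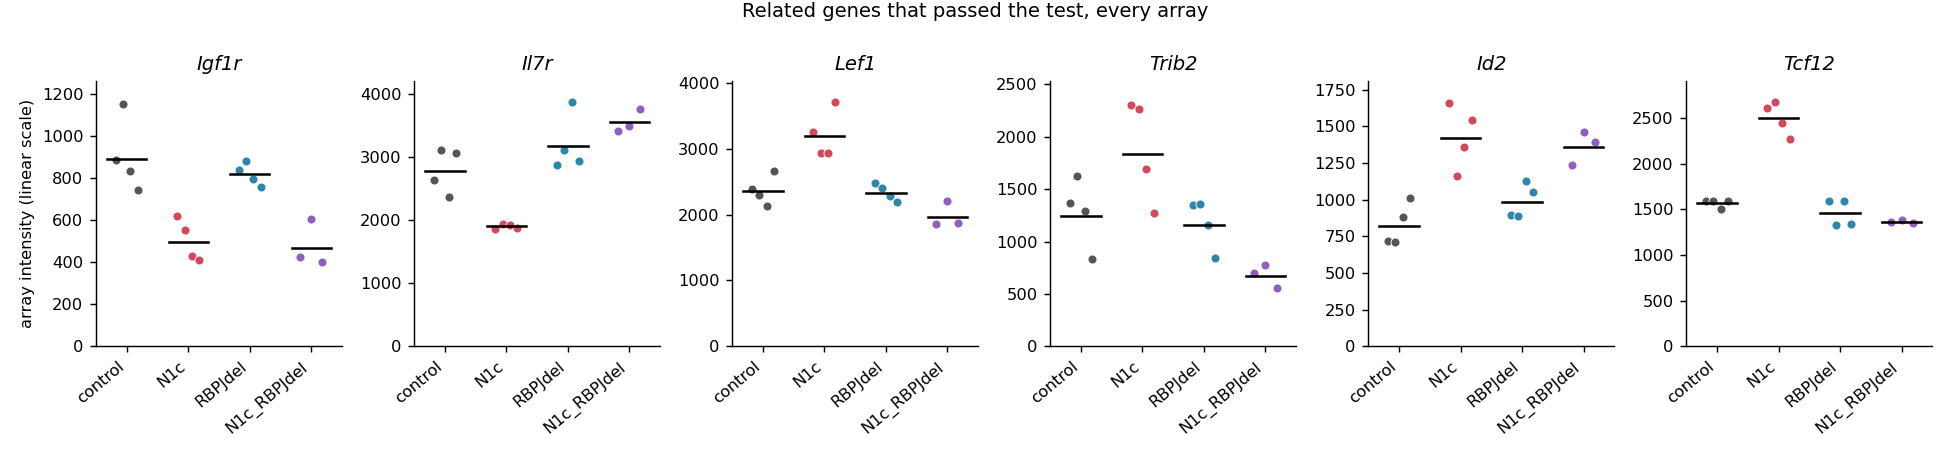
Intensity on the linear scale of each array (points, vertical axis from 0) for 6 genes of the related lists in the 4 genotype groups (horizontal axis), with the geometric mean of each group as a bar. Igf1r lies lower in both groups that carry R26N1c and Id2 higher. The geometric means of Il7r, Lef1, Trib2 and Tcf12 lie on opposite sides of control in N1c and N1c_RBPJdel, though not each of these differences was called.

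The contrast with the feedback and Hes/Hey targets was one of counts. Of 7 such genes 6 rose in N1c against control, with a median of 1.47. Of the 5 members none rose, 1 fell and the median was 0.00. Of all genes, 0.937% rose and 0.714% fell there, so 5 genes without a rise say little by themselves. Hes1, a repressor that Notch induces in many tissues, read 55.1 to 72.7 on the control arrays and 412 to 1064 on the N1c arrays, a rise of 3.25 ± 0.25 (adjusted p = 2.83e-07). Dtx1, a Notch-induced ubiquitin ligase, rose by 1.47 ± 0.21 (adjusted p = 0.000471) and fell in RBPJdel against control (-2.12 ± 0.21, adjusted p = 0.000116). Hey2, whose window is printed above with that of Ptcra and Notch3, rose by 0.66 ± 0.14 (adjusted p = 0.0191). In N1c_RBPJdel against N1c, 5 of the 7 fell with a median of -1.84, where 4.65% of all genes fell. Of the 5 members none was called there, beside 9.23% of all genes, and the median was 0.10. These lists were chosen with earlier results of these data known. They were described by counts, and no test of one list against another was made.

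**Figure D4:**
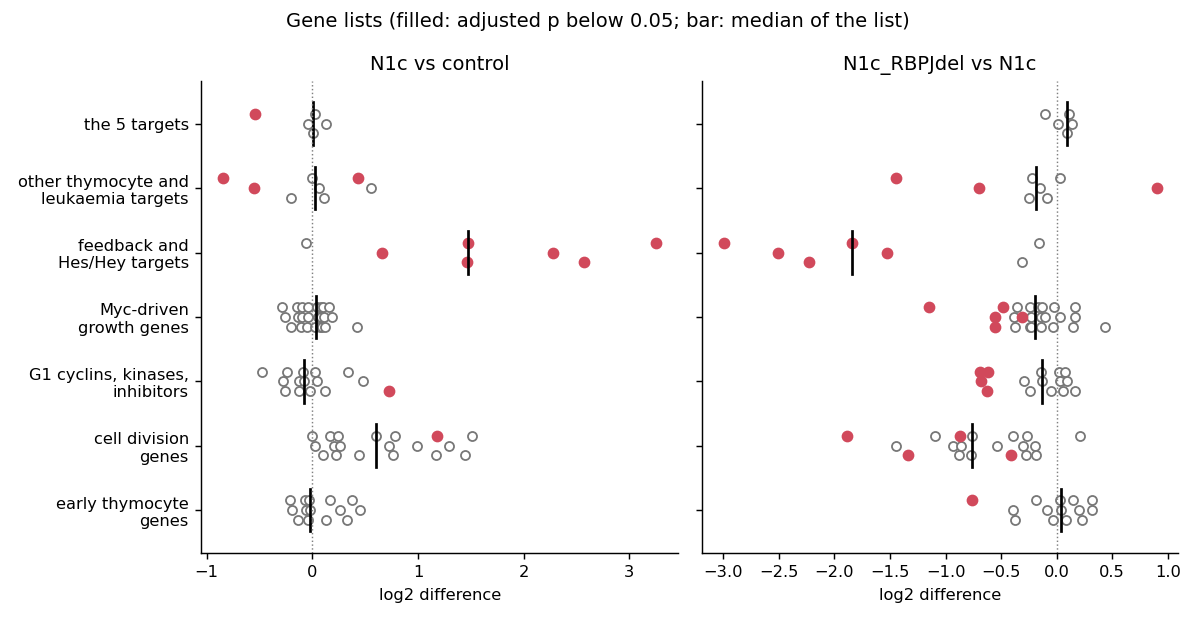
Log2 difference of each gene (points, horizontal axis) in N1c against control and in N1c_RBPJdel against N1c for the 5 members and 6 related lists (vertical axis), filled where the adjusted p is below 0.05, with the median of each list as a bar. The feedback and Hes/Hey targets have medians of 1.47 and -1.84, and the 5 members have medians of 0.00 and 0.10.

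Likeness over the 15 arrays was lower for the 4 dim members than for Myc. Ptcra ran most like Ccdc180 (r = 0.88), Col9a3 (r = 0.88) and Tmem196 (r = 0.86). Notch3 ran most like Fstl3 (r = 0.92), Zfr2 (r = 0.90) and Sh2d5 (r = 0.86). Ccnd1 followed Scube1, Nxph4 and Pltp (each r = 0.83), and Id1 followed Cited1 (r = 0.74), Niban3 (r = 0.68) and Hoxb3 (r = 0.65). Across alternatives r fell as low as 0.35 for Ptcra with Tmem196 and 0.08 for Id1 with Hoxb3. Among the members themselves, Myc and Id1 ran in opposite directions (r = -0.48), which shrank to -0.13 after subtracting group means.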

How the data were processed

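RNA of splenic Treg was measured on 15 arrays, 1 pool of mice per array. The deposited values are array intensities; per the submitters' processing notes the authors used Affymetrix Power Tools and RMA, and the sources used here give no version or annotation release. They ran from 5.61 to 18029.7, with array medians of 107.1 to 117.2, which is a linear scale, and were converted to log2. Features naming 1 gene were kept (21425 of 24922; 1399 named several and 2098 none), with the brightest feature for the 921 genes that had more than 1, and no filter on dim genes. The number of arrays limits the precision. Arrays correlated at 0.957 to 0.996.

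limma 3.58.1 in R 4.3.3 fitted 1 mean per group on all 15 arrays (11 residual and 6.15 prior degrees of freedom), and the code was tested on simulated data. Members and gene lists were chosen with earlier results of these data known. Named genes were the members and, as checks, Rbpj, Notch1 and Foxp3. Also named were up to 4 called genes per list by smallest p, and the 3 genes most like each member. Il7r, Igf1r and others of the small lists fall under this rule. Pvt1, Ccnd2, Ccnd3, Id3, Notch2, Notch4, Cd3e and Rag1 were added as relatives or neighbours with their values seen. Dntt and Lyl1 were added from their list, also with their values seen. Same-numbered N1c and control arrays deviated together (r of 0.341 to 0.497 over 3 numbers, above the limit of 0.1). Differently numbered ones ranged from -0.426 (control array 5 with N1c array 2) to 0.371 (control array 2 with N1c array 1). Other group pairs did not meet the limit in every number. The main tests of all comparisons used no block, so the main p-values of N1c against control leave the pairing by number out. The replicate block was run as an alternative. In N1c against control the calls on Cdkn2c, Id2, Tcf12 and Igf1r were kept in all 25 alternatives, the block among them. Alternatives were quantile normalization, an offset of 32, leaving out dim genes, the mean over features, array weights, a trended robust prior, the replicate block, the compared groups alone, leaving out each array, and, chosen after seeing the data, a fit without the N1c_RBPJdel arrays.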

Additional observations from a re-analysis of the deposited data

Results flagged for a closer look

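No member was among the results picked out here, which come from the 47 named genes. In 12 of 141 groups of 4 arrays, 1 array lay far from the rest, where chance gives about 1 in 20 groups. Among the control arrays, Rbpj read 571 on array 2 (470.3 to 483 on the others) and Notch1 read 836 on array 5 (1367 to 1443). Tcf12 read 1506 on array 4 and the same value, 1595, on each of the others. With such a tie the rule picks any array that differs, however little, and the rate of 1 in 20 does not hold. Among the N1c arrays, array 1 read 1093 for Themis (925 to 930.0) and 31.4 for Ms4a1 (28.3 to 28.8). RBPJdel array 4 was low in 3 division genes, at 98.4 for Ube2c (196 to 224), 119 for Rrm2 (251 to 289) and 75.5 for Ccna2 (352 to 462). RBPJdel array 1 read 455 for Skil (503 to 506), and array 3 read 21.1 for Klrd1 (22.6 to 22.7). RBPJdel array 2 read 24.9 for Ngp (21.0 to 21.4) and 144 for Slc4a1 (107 to 109).

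The interaction term was called for 11 named genes. It rests on the N1c_RBPJdel arrays, whose sorter cannot be told apart from the genotype. Those arrays also carried more erythroid, myeloid and B cell signal, with B cell sums that overlap those of RBPJdel. The part of that signal in the term was not tested. The term was negative for Hes1 (-2.99, adjusted p = 0.000462), Heyl (-2.43, adjusted p = 1.34e-07), Hey1 (-1.80, adjusted p = 2.46e-05), Rrm2 (-1.71, adjusted p = 0.0469), Ube2c (-1.60, adjusted p = 0.041), Cdkn2c (-0.83, adjusted p = 0.0126), Tcf12 (-0.77, adjusted p = 0.00711) and Lef1 (-0.68, adjusted p = 0.041). For Rrm2, Ube2c, Cdkn2c, Tcf12 and Lef1 the difference was above 0 in N1c against control and below 0 in N1c_RBPJdel against RBPJdel. It went from 0.79 to -0.92 for Rrm2 and from 1.18 to -0.42 for Ube2c. None of these genes was called in N1c_RBPJdel against RBPJdel, and Rrm2 was not called in N1c against control either. A change of sign without RBPJ was therefore not shown for any of them. The term was positive for Il7r (0.71, adjusted p = 0.0459) and for the B cell and erythroid genes Cd79a (1.05, adjusted p = 0.0126) and Car1 (2.55, adjusted p = 0.0204). Of 22 alternatives, 9 kept the call on Il7r, 11 that on Lef1, 10 that on Ube2c and 8 that on Rrm2, and adjusted p reached 0.109 for Il7r, 0.201 for Lef1, 0.102 for Ube2c and 0.109 for Rrm2. Among the losses of all 4 were the fits without N1c_RBPJdel array 1 and without array 3. The call on Car1 was kept in 18 of 21 alternatives and lost, among others, without RBPJdel array 2 (2.52, adjusted p = 0.0556).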

How the results depend on the processing

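Intensities give no depth. The 647 alternative values of Ptcra, Notch3, Ccnd1 and Id1 held no call, and the sign of an uncalled difference turned in 30 of them. No alternative turned the sign of a called difference of a member or other named gene. Ptcra, Ccnd1 and Id1 have no value with dim genes left out, and the block of 2 groups alone was not run for pairs sharing fewer than 3 numbers. The cause of the shifts below was not tested.

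For Myc in N1c against control the log2 difference was -0.53 with an offset of 32 (adjusted p = 0.0504), -0.60 with the replicate block, which kept the call, and -0.60 to -0.49 when 1 array was left out. In N1c_RBPJdel against control it became a call with the block (-0.54, adjusted p = 0.0104) and array weights (-0.54, 0.0282), with -0.59 to -0.24 when 1 array was left out. In N1c_RBPJdel against RBPJdel it became one with the block (-0.40, 0.0435), with -0.51 to -0.17 when 1 array was left out. In N1c against RBPJdel it became one with quantile normalization (-0.48, 0.0465), the block (-0.46, 0.0404), the 2 groups alone (-0.47, 0.0427), the block in the 2 groups alone (-0.48, 0.0358), array weights (-0.47, 0.00728) and without the N1c_RBPJdel arrays (-0.47, 0.0242), and also without N1c_RBPJdel array 2 (0.038) or array 3 (0.0321), with -0.54 to -0.41 when 1 array was left out.

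Counts of called genes moved more. N1c against control (326) gave 494 with the block, 733 with array weights and 217 to 383 without 1 array. RBPJdel against control (22, and 1331 at an unadjusted p under 0.05) gave 45 with the block in the 2 groups alone and 189 with array weights. N1c_RBPJdel against N1c (1823) gave 1187 with dim genes left out, 3699 with the block, 561 for the 2 groups alone and 903 to 3058 without 1 array. N1c_RBPJdel against control (1757) gave 1141 with quantile normalization, 3767 with the block, 406 for the 2 groups alone and 530 to 3088 without 1 array. N1c_RBPJdel against RBPJdel (452) gave 192 with dim genes left out, 2107 with the block, 98 for the 2 groups alone and 76 to 1890 without 1 array. N1c against RBPJdel (494) gave 1017 with array weights. The interaction (166) gave 632 with the block, 257 with array weights and 101 to 478 without 1 array. For the 3 pairs with N1c_RBPJdel, the lowest of the counts without 1 array came without N1c_RBPJdel array 1 and the highest without array 2.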
